A study of Homo sapiens with 9 samples.

Results

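The starts described here are transcription start sites that carried almost no nascent RNA signal before ultraviolet (UV) irradiation. A start was a member when its mean signal from 2 kb before to 10 kb after it, averaged over the 3 mock-treated libraries, was under 0.2. Of the 7936 identifiers present in all 9 library tables, 3309 met this rule, which is 41.7%. The mock libraries chose the members, so their low mock level is a description and no test is made on it. A further 1869 identifiers were missing from 1 or more tables and were not used in the main count.

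The study labelled newly made RNA with bromouridine (BrU) and sequenced it (BrU-seq) in RPE1 iCas9 cells, an immortalised human retinal pigment epithelium line. All 3 lines share the p53/puro-dKO background, a double knockout that the unirradiated controls carry too. The lines were WT, a knockout of STK19 (KO) and that knockout carrying STK19-TY, called rescue here, and each was mock-treated or given 12 J/m2 of UV-C and sampled at 3 h and 16 h. Each combination of line and condition was 1 library, 9 in all, so there is no replicate of any group. The pulse lasted 30 min with 2 mM BrU. By 1 label it began 2.5 h or 15.5 h after UV, and by another after the full 3 h or 16 h. The sources used here do not say whether KO and rescue were single clones. The labelled cell type could not be checked against its markers, because identifiers were not paired with gene names.

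UV-C makes bulky lesions in DNA that stop RNA polymerase II in transcribed genes. Transcription-coupled repair, in which STK19 takes part, removes such lesions from the transcribed strand. A start without nascent RNA either has no initiating polymerase or too little to be seen, and reads over it can also come from a neighbouring gene whose polymerase runs through. BrU-seq sees all RNA made during the pulse, so signal at a start does not by itself show that the start was used.

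The level of a start is the mean of the deposited signal over the 60 bins of 200 bp in this window. The unit is the authors' scaled coverage, with no absolute meaning. One fragment was worth between 0.0149 in WT at 16 h and 0.185 in KO at 3 h on this scale. A level of 1 therefore stood for about 66.9 estimated fragments in the deepest library and 5.39 in the shallowest, so counts of starts with any signal are also given at a common depth.

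Silence was close to complete. Of the 3309 members, 1333 were at 0 in every mock library and 580 were at 0 in all 9 libraries. The median member had a mock level of 0.0144, and the highest level of any member in a single mock library was 0.586. At the edge of the rule, 23 members lay between 0.19 and 0.2 and 31 starts lay between 0.2 and 0.21, with 0.1997 the highest mean inside and 0.2013 the lowest outside. The group just inside averaged 0.206, 0.353 and 0.296 at 16 h in WT, KO and rescue, and the group just outside 0.208, 0.309 and 0.234, and at 3 h the values were 0.276, 0.272 and 0.288 inside and 0.157, 0.223 and 0.224 outside. The group just inside was higher at 3 h in each line and close to the group outside in WT at 16 h, given without a test.

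Pooled over all members, the level stayed near its mock value at 3 h and was higher at 16 h in each line. For WT cells the mean level was 0.0345 before UV, then 0.0391 after 3 h and 0.0651 after 16 h. KO cells had 0.0360, 0.0420 and 0.0752 in the same order. Rescue cells had 0.0305, 0.0352 and 0.0649. The 16 h libraries were the 3 highest and did not overlap with the other 6. The mock levels among these are lowered by the choice of members, so the gap to mock is a description. From 3 h to 16 h, a step in which neither library took part in the choice, the level became 1.67 times as high in WT, 1.79 times in KO and 1.84 times in rescue. The starts that were not silent came to 0.588, 1.01 and 0.905 times their 3 h level. All members together still held only 0.252% to 0.711% of the window signal of all starts, with the highest share in WT at 16 h.

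Within each condition, the number of members with any signal followed depth. It was 1070, 1505 and 1028 in the mock libraries of WT, KO and rescue, 1103, 469 and 663 at 3 h, and 1966, 1096 and 1650 at 16 h. At the depth of the shallowest library, the expected share of members with signal was 14.4%, 14.2% and 13.1% in mock, 12.6%, 14.2% and 12.7% at 3 h, and 18.8%, 20.2% and 18.5% at 16 h. The mock values here are lowered by the choice of members. On starts chosen without the line's own mock library, the share at this depth in mock, at 3 h and at 16 h was 16.8%, 14.1% and 20.2% for WT. It was 15.5%, 15.3% and 21% for KO and 14.4%, 12.8% and 18.3% for rescue. The 16 h share was the highest of each line, and the 3 h share was slightly below mock.

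**Figure D1:**
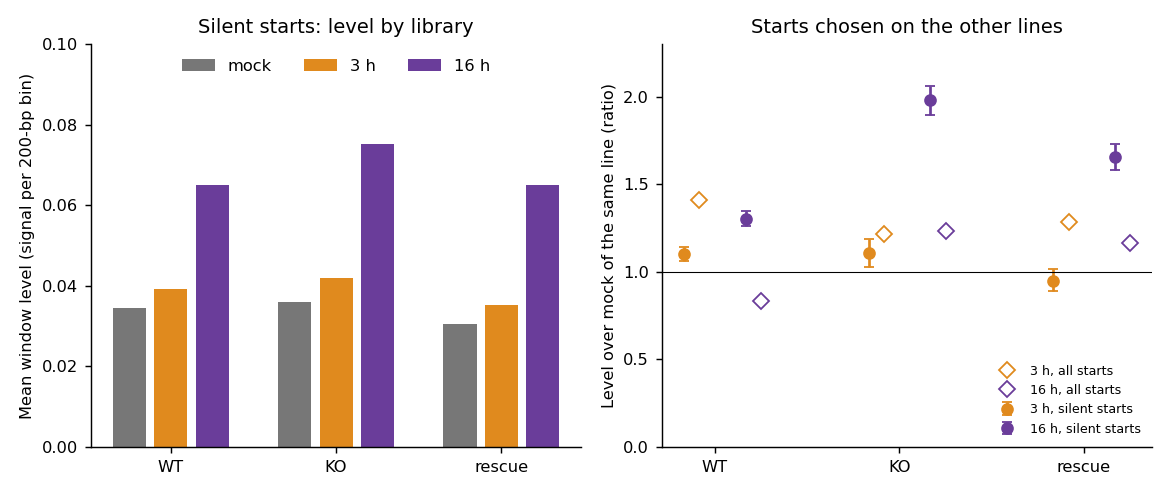
Left, mean window level of the 3309 silent starts in each of the 9 libraries, 1 bar per library, in signal per 200-bp bin. Right, level after UV over mock of the same line for starts chosen as silent on the other lines' mock libraries (filled circles, with exact 95% intervals for counting error) and for all starts (open diamonds); the 16 h circles lie at 1.30, 1.98 and 1.65 and the 3 h circles between 0.95 and 1.11.

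Choosing starts for a low mock level lowers their mock values, so mock and UV were compared on starts chosen without the mock library in question. For each line, starts were taken as silent on the mock libraries of the other lines, which gave 3364 starts for WT, 3338 for KO and 3307 for rescue. At 3 h the ratio of UV to mock was 1.10 for WT (95% interval 1.06 to 1.14), 1.11 for KO (1.03 to 1.19) and 0.95 for rescue (0.887 to 1.02). The 16 h ratio was 1.30 for WT (1.26 to 1.34), 1.98 for KO (1.90 to 2.06) and 1.65 for rescue (1.58 to 1.73). The intervals are exact ones on estimated fragments and cover counting error only, and no p-value is given for a ratio pooled over the members.

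Set against all 7936 starts pooled, the silent ones had lower ratios at 3 h and higher ones at 16 h. The pooled value is weighted towards the most strongly transcribed starts, and classes by mock level are given below. All starts together stood at 1.41, 1.22 and 1.28 times mock at 3 h in WT, KO and rescue, and at 0.833, 1.23 and 1.17 times mock at 16 h. The 16 h ratio of the silent starts relative to that of all starts was 1.56 for WT, 1.61 for KO and 1.42 for rescue. The ratios relative to all starts are within a library, so its scaling cancels from them. The ratios to mock themselves rest on the scale of the deposited values, which were brought to similar totals. With trimmed-mean scaling over transcribed starts, the 3 h ratios were 0.714, 0.961 and 0.820 and the 16 h ratios 1.39, 1.39 and 1.06, so the rescue rise at 16 h was nearly absent on that scale. The direction of the 3 h ratio in WT and KO thus turned with the scaling.

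The WT value depended on a few starts that were silent in KO and rescue but active in WT before UV. Of the 3364 starts, 19 had a level of 1 or more in WT mock, against 0 such starts for KO and 1 for rescue. The highest had a level of 21.5 in WT mock, 43.2 in WT at 3 h and 8.26 in WT at 16 h. In KO the same start was at 0.0216, 0.651 and 0.0943, and in rescue at 0.317, 0.854 and 0.258. It was thus a WT-only transcribed window, high in all 3 WT libraries and below 1 in the other 6. It alone carried 10.0% of the WT mock signal of these starts, and the top 10 carried 22.0%. Without those 10, an alternative added after the values were seen, the WT ratio was 0.985 at 3 h and 1.51 at 16 h.

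A rise at 16 h was also seen in starts with some mock signal. Starts chosen in the same way with a mock level of 0.2 to 0.5 stood at 1.35, 1.32 and 1.53 times mock at 16 h in WT, KO and rescue. Starts at 0.5 to 1 stood at 1.25, 1.30 and 1.43 times mock, and those at 1 to 2 at 1.29, 1.56 and 1.67. Starts at 2 to 5 stood at 1.19, 1.52 and 1.62 times mock, and those at 5 and above at 0.737, 1.18 and 1.09. The silent starts, at 1.30, 1.98 and 1.65, were the highest class in KO only. In each line the most strongly transcribed starts had the lowest 16 h ratio of these classes.

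By position, the ratio to mock was taken on starts chosen without the line's own mock library. In the 2 kb before the start, the 16 h ratio was 1.30 for WT, 1.88 for KO and 1.72 for rescue. In the first 2 kb after the start it was 1.24, 2.25 and 1.92, and from 2 to 10 kb it was 1.32, 1.93 and 1.57. All 3 stretches of the window were thus above mock at 16 h in each line, and the first 2 kb had the highest ratio in KO and rescue and the lowest in WT. From 10 to 20 kb, which the rule did not use, the ratio was 0.940, 1.67 and 1.49, below mock in WT alone. At 3 h the stretches within the window ran from 0.856 in rescue to 1.22 in KO, both in the first 2 kb.

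Silent windows of the same length away from the start were also higher at 16 h. They began at 9 positions, every 20 kb from 100 kb before the start to 80 kb after it, and were chosen as silent by the same rule on the other lines' mock libraries. At 16 h the WT ratios to mock ran from 1.42 to 1.86 with a median of 1.63. The KO ratios ran from 1.51 to 1.91 (median 1.66) and the rescue ratios from 1.35 to 1.85 (median 1.51). All 9 windows were above the ratio at the start in WT, none in KO and 1 in rescue. With levels above 1 set to 1, these counts were 8, 0 and 1. At 3 h the 9 windows had medians of 0.938, 1.09 and 1.01. Some of these windows hold other genes or other starts, which the tables do not mark.

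**Figure D2:**
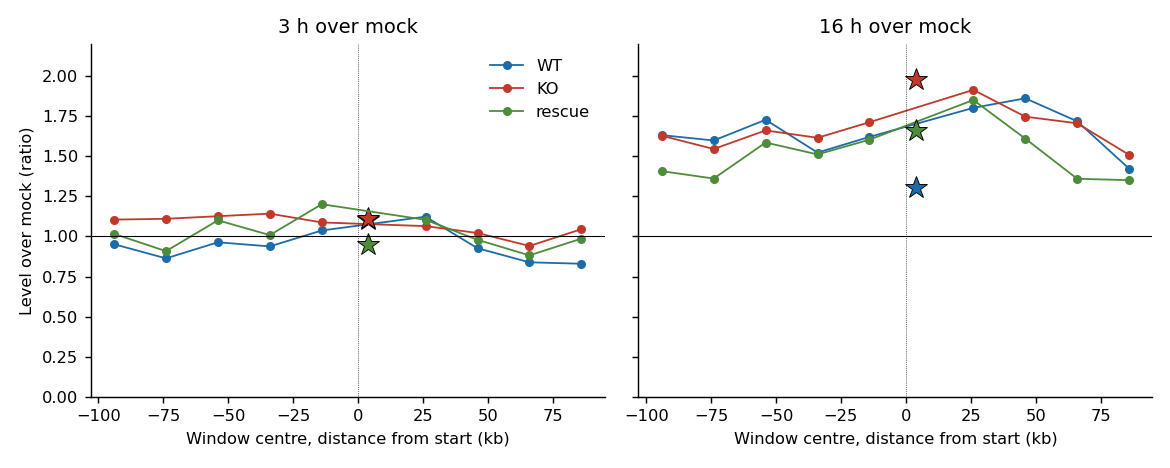
Ratio of the pooled level after UV to mock (vertical axis) for silent windows at 9 distances from the start (horizontal axis, kb, circles) and for the silent starts (stars), by line, at 3 h and 16 h. The windows were chosen among all starts, silent or not. At 16 h every window and every start lies above 1, from 1.30 to 1.98.

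The 16 h ratio differed with the surroundings of the silent start. Flanks were taken from 20 to 2 kb before the start and from 10 to 28 kb after it, quiet when under 0.2 and active at 1 or more in the mock libraries used for the choice. Among the 3309 members, 2276 had both flanks quiet, 291 only the upstream flank active, 197 only the downstream flank active and 35 both active, and 510 lay between these classes. With both flanks quiet, the 16 h ratio was 1.21 for WT, 1.64 for KO and 1.53 for rescue. Beside an active upstream flank it was 2.63, 2.86 and 2.23. Beside an active downstream flank it was 1.88, 3.77 and 2.59, and with both active 2.52, 2.84 and 2.49. The active classes were higher than the quiet class in each line, and their counting intervals did not overlap with it. With levels above 1 set to 1, the quiet class gave 1.29, 1.58 and 1.62 and the active classes 1.87 to 2.67.

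Where the whole 200 kb around the start had a mean under 0.2, the 16 h ratio was 1.02 for WT (0.961 to 1.08), 1.28 for KO (1.16 to 1.40) and 1.23 for rescue (1.12 to 1.35). With levels above 1 set to 1 it was 1.07, 1.23 and 1.23. A change in WT was not detectable at this depth in these surroundings. For the members with an active upstream flank, the flank's mock level was 5.27, 4.40 and 4.32 for WT, KO and rescue, and its 16 h level 4.93, 6.71 and 6.29. The window beside it went from 0.0486, 0.0616 and 0.0501 to 0.139, 0.184 and 0.145. These window values share their mock libraries with the choice and are a description. In WT the active flank was slightly lower at 16 h and the silent window beside it higher. Whether the added reads began in the neighbouring gene or at the silent start was not tested, since the sources used here do not say whether strand was kept.

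At 3 h the classes had no common order in the lines. Beside an active upstream flank the ratio was 1.40, 1.29 and 1.29 in WT, KO and rescue, beside an active downstream flank 1.15, 1.06 and 1.40, and with both active 1.72, 0.915 and 1.22. Where the whole 200 kb was under 0.2 it was 1.01, 1.41 and 0.871. With both flanks quiet it was 0.984 for WT (0.934 to 1.04), 1.30 for KO (1.17 to 1.43) and 0.845 for rescue (0.762 to 0.935). The quiet classes were the highest in KO and the lowest in WT and rescue. In KO the interval with both flanks quiet overlapped with that beside an active upstream flank (1.06 to 1.54). With levels above 1 set to 1, KO gave 1.21 with both flanks quiet and 1.27 beside an active upstream flank. It gave 1.27 where the whole 200 kb was under 0.2, so the order in KO was not stable. KO at 3 h was the shallowest library, and its part in this value was not tested.

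**Figure D3:**
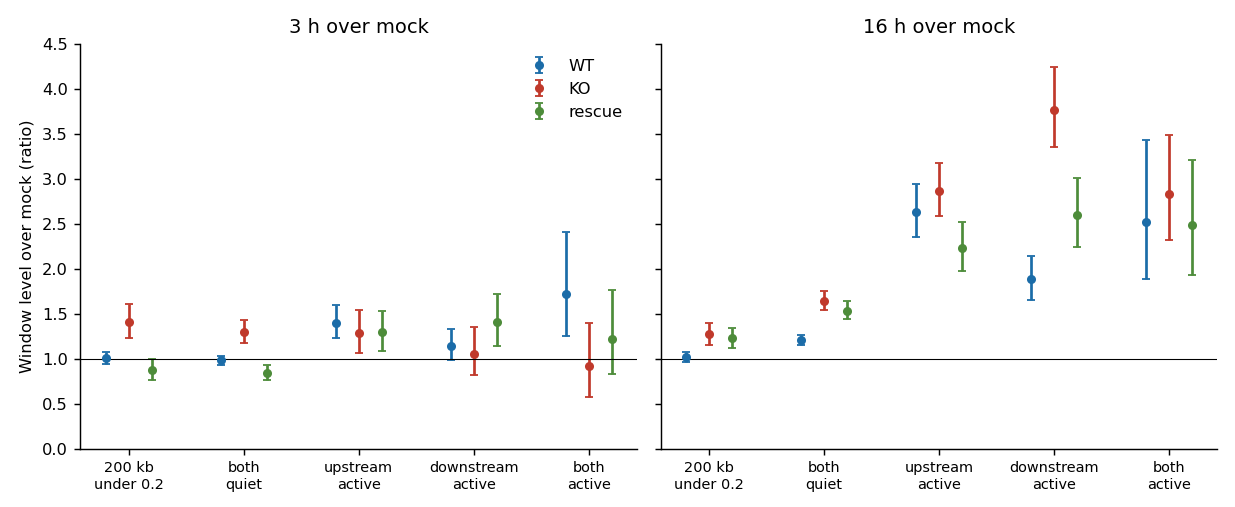
Ratio of the pooled window level after UV to mock (vertical axis) for silent starts grouped by the activity of their flanks in mock (horizontal axis), by line, at 3 h and 16 h; bars are exact 95% intervals for counting error. At 16 h the classes with an active flank lie between 1.88 and 3.77 and the starts whose 200 kb are under 0.2 between 1.02 and 1.28.

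Few single starts switched on. A level of 1 or more was reached at 3 h by 6 members of WT, 12 of KO and 6 of rescue, and by 1 member in all 3 lines. At 16 h it was reached by 15, 33 and 16 members, and by 3 in all 3 lines. KO was the shallowest library at each time. A level of 1 stood for 33.6, 5.39 and 10.7 fragments in WT, KO and rescue at 3 h. At 16 h it stood for 66.9, 13.5 and 45.8. The counts of the lines are thus at unlike depths, and the part of depth in them was not tested. A level of 0.5 or more in all 3 lines was reached by 6 members at 3 h and 25 at 16 h. No member could be at 1 in a mock library, since the rule held the mean of the 3 mock libraries under 0.2. The absence of such members in mock is thus no result.

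Taking the mean of the 3 lines, 23 members reached 0.5 at 3 h and 80 at 16 h, and 94 reached it at either time, 2.84% of the members. The lists shared 9 starts, which is 39.1% of the 3 h list and 11.3% of the 16 h list. The 3 h list had a median line mean of 0.713 at 3 h and 0.410 at 16 h. The 16 h list had 0.202 at 3 h and 0.694 at 16 h. Each list is thus lower at the time that did not choose it, and the values at the choosing time are set by the choice. KO was the highest line for 14 of the 23 and for 39 of the 80. It was also the shallowest library at each time, and the part of depth in these counts was not tested.

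In 20 of the 23 starts the 3 h level was above the same line's mock in all 3 lines, and in 17 every 3 h library was above every mock library. For the 16 h list these numbers were 73 and 68 of 80. Over all 7936 starts, 11.6% had every 3 h library above every mock library and 20% had every 16 h library above every mock library. Over all 3309 members the shares were 1.78% and 9.73%. The mock libraries chose the members, so nothing is read from these shares.

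For 16 h against 3 h, where the mock libraries play no part, 340 members (10.3%) had every 16 h library above every 3 h library, beside 12.8% of all starts. That share is near the background and is no result about the members.

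The surroundings of the switched-on starts are given for both lists, with no test between them since they share starts. At 3 h, 10 of 23 had both flanks quiet in mock and 9 had a flank at 1 or more. At 16 h, 25 of 80 had both flanks quiet and 41 had a flank at 1 or more. The level in the first 2 kb relative to the whole window had a median of 1.35 in the 3 h list and 1.13 in the 16 h list. Averaged over the 23 starts and the lines, the first 2 kb stood at 1.42 at 3 h against 0.1996 in mock, and 4 to 6 kb after the start at 0.455 against 0.0950. Averaged over the 80 starts, the first 2 kb stood at 1.11 at 16 h against 0.153 in mock, and 4 to 6 kb at 0.697 against 0.104. From 8 to 10 kb the values were 1.03 at 3 h in the 3 h list and 0.649 at 16 h in the 16 h list. The distance of these values from mock is set by the choice of starts. In these averages, signal within the window was highest in the first 2 kb in both lists. In the 3 h list it was high again at the far end. Single starts differed. Several starts of the 3 h list, among them uc002zcv.3 and uc061ziv.1, had no signal in the first 2 kb at 3 h. Start uc061ody.1, in both lists, had none there at 3 h or at 16 h. Starts uc003hyi.4 and uc001rsn.4 lay above the 3 h median of 1.35. The averages thus do not describe each start.

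By class, a line mean of 0.5 or more at 16 h was reached by 25 of 2276 members with both flanks quiet (1.10%), 18 of 291 with an active upstream flank (6.19%), 18 of 197 with an active downstream flank (9.14%) and 5 of 35 with both (14.3%). Over all members it was 80 of 3309 (2.42%). Members can lie near each other, which the tables do not state. Shared stretches were inferred from the correlation of bin-to-bin changes in signal at any offset. Of 2416 members with at least 100 covered bins, 769 (31.8%) had another member at a correlation of 0.4 or more, and these may overlap and not be independent. Among the 94 starts, no pair reached 0.3.

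**Figure D4:**
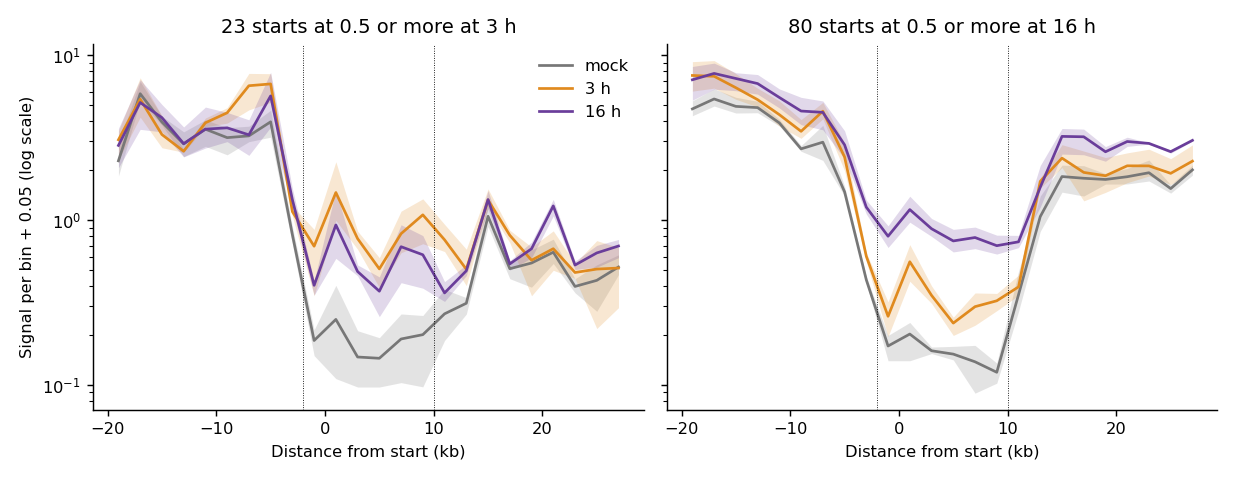
Mean signal per 200-bp bin, with 0.05 added, on a log axis against distance from the start (kb) for the 23 starts with a line mean of 0.5 or more at 3 h (left) and the 80 at 16 h (right); lines are means over the 3 cell lines, bands the lowest to highest line, dotted lines the window edges. In mock the window is a trough between higher flanks, and at the choosing time it stands at 1.42 (3 h list) and 1.11 (16 h list) in the first 2 kb. The low mock level of the window and its higher level at the choosing time are both set by the choice of starts.

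By a fixed rule, the members named are those at 1 or more in all 3 lines at either time, and there were 4. Their low mock level and their high level at the choosing time are set by the choice. Their distance from mock is thus a description. The limma values below are for starts picked on the same UV libraries and give no separate support. The files do not pair their identifiers with gene names. Start uc003hyi.4 switched on at 3 h with quiet flanks. Its mock level was 0.316, 0.280 and 0 for WT, KO and rescue, with 2.03, 2.85 and 1.63 at 3 h, and 0.504, 1.64 and 0.424 at 16 h. The 3 h levels were all above all mock levels, which the choice had fixed. The 16 h range overlapped with the 3 h range only through KO. Its signal was concentrated at the start: the first 2 kb held 7.07, 12.7 and 4.15 at 3 h, while 2 to 10 kb held 1.18, 0.244 and 1.04. The change from 3 h to 16 h was -1.43 ± 0.55 (log2, SE), with an adjusted p of 0.0768 in limma, short of the threshold.

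Start uc001rsn.4 had a quiet upstream flank and an active one downstream, whose mock level was 8.44, 5.93 and 7.60 for WT, KO and rescue. Its window was at 0.0226, 0.248 and 0.204 in mock, 1.34, 2.85 and 0.285 at 3 h, and 1.03, 4.12 and 1.80 at 16 h. Every UV library was above every mock library, KO was the highest line at both times, and the 3 h and 16 h ranges overlapped. The change from 3 h to 16 h was 0.82 ± 0.53 (log2, SE; limma adjusted p 0.373).

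Start uc059qxb.1 lay after a strongly transcribed stretch. Its upstream flank stood at 23.01, 14.9 and 17.1 in mock and 42.5, 34.0 and 50.9 at 16 h in WT, KO and rescue. The window was at 0.0451, 0.0647 and 0.113 in mock, 0.431, 0.163 and 0.163 at 3 h, and 1.41, 1.67 and 2.02 at 16 h. The 16 h levels, for which this start was named, were all above the other 6. The change from 3 h was 2.42 ± 0.64 (log2, SE; limma adjusted p 0.0051). The upstream flank was also higher at 16 h in each line, and its part in the window's change was not tested.

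Start uc062zhc.1 had mock levels of 0.316, 0.129 and 0 for WT, KO and rescue. They were 0.228, 0 and 0.122 at 3 h, and 2.63, 1.10 and 1.02 at 16 h. The 16 h levels, for which this start was named, were all above the other 6, with WT the highest. In the 2 kb before the start the signal was 4.07, 2.08 and 1.88 at 16 h, and in the first 2 kb after it 3.10, 0.189 and 0.609. In each line it was thus higher before the start than after it. Its upstream flank went from 3.85, 1.38 and 0.756 in mock to 8.91, 3.69 and 5.18 at 16 h. The change from 3 h was 2.99 ± 0.72 (log2, SE; limma adjusted p 0.00153).

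**Figure D5:**
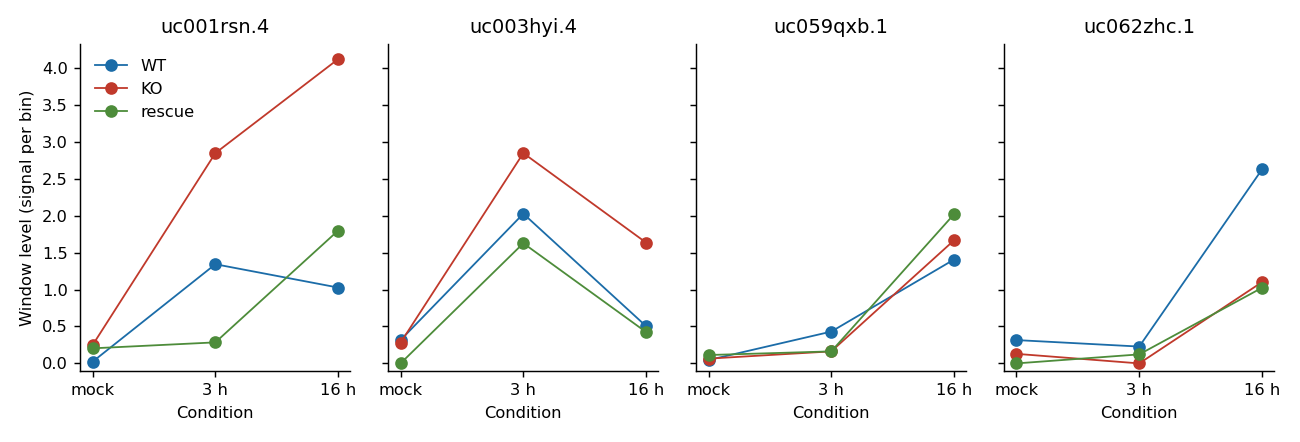
Window level (signal per 200-bp bin, vertical axis) of the 4 named starts in each library, by condition (horizontal axis) and line (colour), 1 point per library. Start uc003hyi.4 peaks at 3 h in all 3 lines, uc001rsn.4 is above mock at both times, and uc059qxb.1 and uc062zhc.1 are at 1.02 or more only at 16 h.

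Single starts were tested among the 6 UV libraries only, with limma on log2 of the level plus 0.1, with a filter at a mean level of 0.5 and Benjamini-Hochberg adjustment over all starts tested. Of the 3309 members, 42 passed the filter and 3267 did not. The 42 are members that were high in some UV library, all of them among the 94 starts above, so their counts give no support for a rise of the members as a whole. For 16 h against 3 h with the line as a block, 13 of the 42 were called, all higher at 16 h. Over all 3986 starts tested 9.36% were called, 4.92% higher and 4.44% lower. The median change of the 42 was 0.999 (log2), with 31 higher, beside 0.18 over all starts tested.

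The 13 called members had levels from 0 to 0.488 at 3 h and from 0.467 to 2.80 at 16 h. In each of them every 16 h library was above every 3 h library, which held for 12.8% of all starts. They were called on these same libraries, so this gives no separate support. Their changes ran from 2.02 to 2.99 (log2). In 7 of them KO at 3 h, the shallowest library, was at 0. In 12 of the 13 a flank was at 1 or more in mock, and 1 had both flanks quiet, against 26 and 10 of the 42 tested. Without the KO 3 h library 6 of 48 members tested were called and without the KO line 5 of 35, all higher. Over all starts tested these settings called 98 of 4003 and 91 of 3981. Without the rescue line 1 of 42 members was called higher and 1 lower, beside 23 higher and 48 lower of all 3977 starts. Without the WT line 16 of 51 members were called higher and 1 lower, beside 575 higher and 226 lower of all 3973 starts. With trimmed-mean scaling 23 members passed the filter and 8 were called, beside 680 of all 3926 starts tested. With no filter no start was called. An unadjusted p under 0.05 in limma was then seen for 282 of 3309 members and for 942 of all 7936 starts.

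The lines were compared after UV with both times as the repeats. For KO against WT, 1 of the 42 members was called, lower in KO, where 0.728% of all starts tested were called, 0.452% higher and 0.276% lower in KO. It was uc057nuk.1, named after its values were seen. Its level was 1.44 in WT at 3 h and 1.53 in WT at 16 h, 0 in KO at both times, and 0 and 0.406 in rescue. WT had been at 0.451 in mock, KO at 0.0647 and rescue at 0.0453, so WT was the highest line in each condition. The change was -3.99 ± 1.05 (log2, SE; limma adjusted p 0.0264), and it was not called with trimmed-mean scaling or without the time block. This start passed the filter only through its WT levels, so its call gives no support for a difference between KO and WT. For rescue against KO, none of the 42 members was called by limma, and 0.0251% of all starts tested were. An unadjusted p under 0.05 was seen for 2 of the 42 members and for 59 of all 3986 starts tested.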

How the data were processed

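BrU-seq was measured in 9 libraries, grouped by title. The deposited signal is coverage in 200-bp bins over 1001 columns around each start, scaled by the authors to similar totals, per the file headers and the values. Per the submitters' processing notes, the tools included STAR 2.7.7a, HOMER 4.8.2 and Trim Galore 0.6.5, with hg38 and GRCh38 as builds, and no role is stated. Strand use was not given in the sources used here. Tables hold 8499 to 9520 identifiers; those in all 9 were used. The tables of averages over libraries were not used. Residues under 1e-06 were set to 0. Fragments were estimated from each library's smallest step and the mean length of isolated runs. Members and lists were chosen with earlier results of these data known. Python 3.11.15 gave levels, ratios and exact Clopper-Pearson 95% intervals. R 4.3.3 with limma 3.58.1 (trend, eBayes, threshold 0.05) tested log2(level + 0.1) in the 6 UV libraries with line and time as terms, 2 residual degrees of freedom, after a test on simulated data. Fold changes on this scale understate changes of low starts. P-values measure the spread between single libraries of 3 lines, not between replicates. Trimmed-mean factors came from starts with a mean level of 1 or more. Named starts were the members at 1 or more in all 3 lines at 3 h or at 16 h, by a rule taking the 2 highest and 2 lowest changes from 3 h to 16 h. Other thresholds, windows, scalings, filters and left-out lines were tried, and levels above 1 were set to 1 as an alternative added after the values were seen. No identifier matched the reference tables exactly, so no gene names or sequences are given.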

Additional observations from a re-analysis of the deposited data

Results flagged for a closer look

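Among silent starts with both flanks quiet, the 3 h level over mock was 1.30 in KO (1.29654 before rounding) and 0.845 in rescue (0.844605), above 1 in the first line and below 1 in the second. The counting intervals did not overlap, and with 1 library a group the difference between the lines was not tested.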

How the results depend on the processing

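The 16 h ratio of silent starts to mock was above 1 in all 24 combinations of line and setting, from 1.06 to 2.10. The 3 h ratio was above 1 in 11 of 24, from 0.714 to 1.15. Both counts include the main setting of each line. Leaving out the 10 starts highest at a UV time removes UV signal by choice. It can also raise the ratio, as in WT at 16 h (1.42 against 1.30). At 3 h the direction turned in WT without these 10 starts (0.926) and with trimmed-mean scaling (0.714). In alternatives added after the values were seen, the direction also turned in WT without the 10 highest in mock (0.985) and with levels above 1 set to 1 (0.932). It turned in KO without the 10 highest (0.998) and with trimmed-mean scaling (0.961), and rescue crossed 1 the other way at threshold 0.1 (1.03). Other 3 h values beyond the counting interval were 1.003 (threshold 0.1) and 1.15 (window from 0) in WT, and 0.820 (trimmed mean) in rescue. At 16 h WT gave 1.53 (threshold 0.1), 1.42 (without the 10 highest), 1.39 (trimmed mean), 1.51 (without the 10 highest in mock, added) and 1.42 (capped at 1, added). KO gave 2.10 and 1.57 (thresholds 0.1 and 0.5), 1.88 (window from 0), 1.81 (without the 10 highest), 1.39 (trimmed mean) and 1.78 (capped, added). Rescue gave 1.58 (threshold 0.5), 1.54 (without the 10 highest), 1.06 (trimmed mean) and 1.78 (without the 10 highest in mock, added). With absent identifiers taken as 0, 5166 starts were silent. Starts on in all 3 lines at 3 h numbered 6 at level 0.5, 0 at level 2, 0 and 9 at thresholds 0.1 and 0.5, 2 with the window from 0, 0 with trimmed-mean scaling, 2 without WT and 3 without rescue. At 16 h they numbered 25 at level 0.5, 0 at level 2, 1 and 29 at thresholds 0.1 and 0.5, 10 without WT and 1 with a quiet upstream flank. Members called by limma between 16 h and 3 h numbered 0 of 3309 without the filter (282 at an unadjusted p under 0.05). Over all starts this was 0 of 7936 (942 unadjusted). They numbered 1 of 4 tested at a mean of 1 or more (all starts 310 of 3534) and 8 of 23 with trimmed-mean scaling (680 of 3926). With the window from 0 they numbered 8 of 48 (333 of 3941), and without KO 5 of 35 (91 of 3981). Without rescue they numbered 2 of 42 (71 of 3977), and without the KO 3 h library 6 of 48 (98 of 4003). For KO against WT they numbered 0 without the filter (213 unadjusted), beside 0 of all 7936 starts (527 unadjusted). With trimmed-mean scaling they numbered 0 (1 unadjusted), beside 70 of all 3926 starts. Without the time block they numbered 0 (2 unadjusted), beside 2 of all 3986 starts. The cause of these shifts was not tested. Depth limits single starts: in KO at 3 h a level of 1 is about 5.39 fragments. The labels give no replicate numbers. Line paired the times in the fit of 16 h against 3 h. Without that block 13 of 42 members were called, as with it, beside 394 of all 3986 starts tested.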
